A study of Mus musculus with 24 samples.

Results

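Genes of metal handling were followed across all 24 arrays of the study. They were the metallothioneins Mt1, Mt2, Mt3 and Mt4, the zinc-sensing transcription factor Mtf1, the exporters Slc30a1 and Slc30a10, and the importers Slc39a4 and Slc39a14. These 9 genes, of 19505 measured in all, were chosen by name, selected on their signal levels and differences over these same 6 groups, so their order between ages is given as a description. A gene was measured by the probe set that names it and no other gene, and each of the 9 had exactly 1.

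The arrays held RNA from the outbred mouse strain ICR-CD1, whose animals were grandoffspring of control or of obese grandfathers, the latter labelled SL. Material labelled whole embryo was taken at embryonic day 7.5 (ED7.5) and embryonic day 14.5 (ED14.5), while the third material was neonatal liver of postnatal day 7.5 (PD7.5), with 4 arrays for each age and grandfather group. No label says whether replicates are different litters or animals, so p-values measure the spread between these samples, which may be partly technical. The median signal of an array was 6.307 to 6.606 on the log2 scale, and the background, set as the 75th percentile of 5222 intron control probes, was 5.048 to 6.529. The ED7.5 material carried strong signal of the maternal decidua, with 10 of 10 decidua markers above background on every array and 1 of 10 epiblast markers above it on every array. The ED14.5 arrays had 10 of 10 hepatocyte markers above background on every array, and of 11 neuron and glia markers 1 was above background on every control array and 2 on every SL array. The liver arrays had 10 of 10 hepatocyte markers above background on every array. Liver SL replicate 4 had the lowest erythroid markers, Mt1 and Mt2 of its age, and values that rest on it are given with and without it.

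Metallothioneins are small, cysteine-rich proteins that bind zinc and copper, and also cadmium, and so buffer the free metal in a cell. When zinc rises, MTF1 binds metal response elements in the promoters of Mt1, Mt2 and Slc30a1 and raises their transcription, while glucocorticoids and inflammation also induce Mt1 and Mt2. SLC30 proteins move zinc out of the cytosol and SLC39 proteins move it in; in the mouse, Mt1 and Mt2 are abundant in fetal and newborn liver and in the decidua, Mt3 is best known from brain and Mt4 from stratified epithelia.

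The 4 metallothionein genes lie side by side on mouse chromosome 8. Their promoters are shown because Mt1 and Mt2 were bright at every age while Mt3 and Mt4 were above background at ED7.5 only, and because metal response elements are the known link between zinc and Mt1 or Mt2. Each stretch is from RefSeq on build GRCm38.p6, plus strand, 250 bases before the annotated transcription start and 30 after it. The stretches lie at chr8:94178839-94179118 for Mt1, chr8:94172368-94172647 for Mt2, chr8:94152357-94152636 for Mt3 and chr8:94136954-94137233 for Mt4. Capitals mark matches to the metal response element core, TGCACNC or TGCGCNC, on either strand.
Mt1: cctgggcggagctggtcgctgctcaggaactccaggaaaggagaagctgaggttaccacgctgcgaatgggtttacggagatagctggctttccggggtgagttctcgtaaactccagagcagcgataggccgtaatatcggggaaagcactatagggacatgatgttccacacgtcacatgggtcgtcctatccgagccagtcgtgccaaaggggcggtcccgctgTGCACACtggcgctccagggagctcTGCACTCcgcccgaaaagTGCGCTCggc
Mt2: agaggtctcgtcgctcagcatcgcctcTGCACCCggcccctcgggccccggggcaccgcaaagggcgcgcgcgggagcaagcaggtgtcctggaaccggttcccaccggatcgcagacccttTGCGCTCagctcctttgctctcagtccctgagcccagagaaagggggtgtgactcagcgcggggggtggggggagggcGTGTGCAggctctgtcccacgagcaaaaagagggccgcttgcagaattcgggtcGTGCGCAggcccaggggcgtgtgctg
Mt3: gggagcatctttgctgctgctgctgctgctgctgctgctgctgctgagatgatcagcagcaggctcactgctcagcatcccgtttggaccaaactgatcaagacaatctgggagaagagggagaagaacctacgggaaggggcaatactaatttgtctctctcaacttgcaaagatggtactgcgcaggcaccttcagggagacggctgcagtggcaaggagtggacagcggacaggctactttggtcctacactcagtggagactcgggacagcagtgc
Mt4: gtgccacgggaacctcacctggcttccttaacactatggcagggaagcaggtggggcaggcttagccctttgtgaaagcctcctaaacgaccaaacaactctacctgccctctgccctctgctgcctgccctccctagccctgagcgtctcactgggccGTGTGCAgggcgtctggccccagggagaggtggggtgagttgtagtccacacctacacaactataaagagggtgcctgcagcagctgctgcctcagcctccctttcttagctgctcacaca
Over the whole RefSeq window of 300 bases, Mt1 held 3 matches, at -23 to -17, 3 to 9 and 21 to 27 from the annotated start. Positions count from 1 at the first base that RefSeq annotates as transcribed. Whether transcription began there in these samples was not tested, so a match after the annotated start is not shown to be transcribed. Mt2 held 4, beginning at -223, -128, -50 and 5, the last 2 on the minus strand. Mt4 held 1 match, at -91 to -85 on the minus strand, and Mt3 held 1, at 28 to 34, which the end of the stretch shown cuts and which is therefore not in capitals. Among 32851 mouse promoter windows of the same length, 25.7% held at least 1 match, 1.97% at least 3 and 0.517% at least 4. Of the other members, Slc30a1 held 2 matches, Slc30a10 held 3, of which 2 overlapped on opposite strands, and Mtf1 held 0. Windows were read for 7 of the 9 members, Slc39a4 and Slc39a14 being the other two. A match is a run of letters and was not tested as a binding site.

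Mt1 was among the brightest genes on every array. Its log2 signal was 13.64, 13.55, 13.49 and 13.52 on the ED7.5 control arrays, 13.44, 13.44, 13.43 and 13.45 on the ED14.5 control arrays, and 13.45, 13.49, 13.46 and 13.22 on the control liver arrays. The ED7.5 and ED14.5 controls did not overlap, and their means differed by -0.11 (SE 0.0985), while the liver values overlapped both. After a further quantile normalization that difference was -0.19, and liver minus ED7.5 was -0.38 in place of -0.14. On 2 of the 8 ED7.5 arrays Mt1 was the brightest of all named genes, and on the ED14.5 arrays it lay 0.08 to 0.22 below the brightest. In liver that gap was 0.40 to 0.96. Whether array signal stays proportional to RNA this near the top of the scale was not tested.

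The means of Mt2 followed the same order with wider steps. Its control signal was 13.34, 13.29, 13.29 and 13.11 at ED7.5, 13.03, 13.01, 13.06 and 13.08 at ED14.5, and 12.71, 12.88, 12.91 and 12.58 in liver. No control array of an older age reached the values of a younger one. The means were 13.26 ± 0.101, 13.05 ± 0.0309 and 12.77 ± 0.151 (SD, n = 4). The differences were -0.21 for ED14.5 minus ED7.5 and -0.28 for liver minus ED14.5, each with an SE of 0.134 from the fit of all 24 arrays. After a further quantile normalization of the arrays the latter was -0.41.

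**Figure D1:**
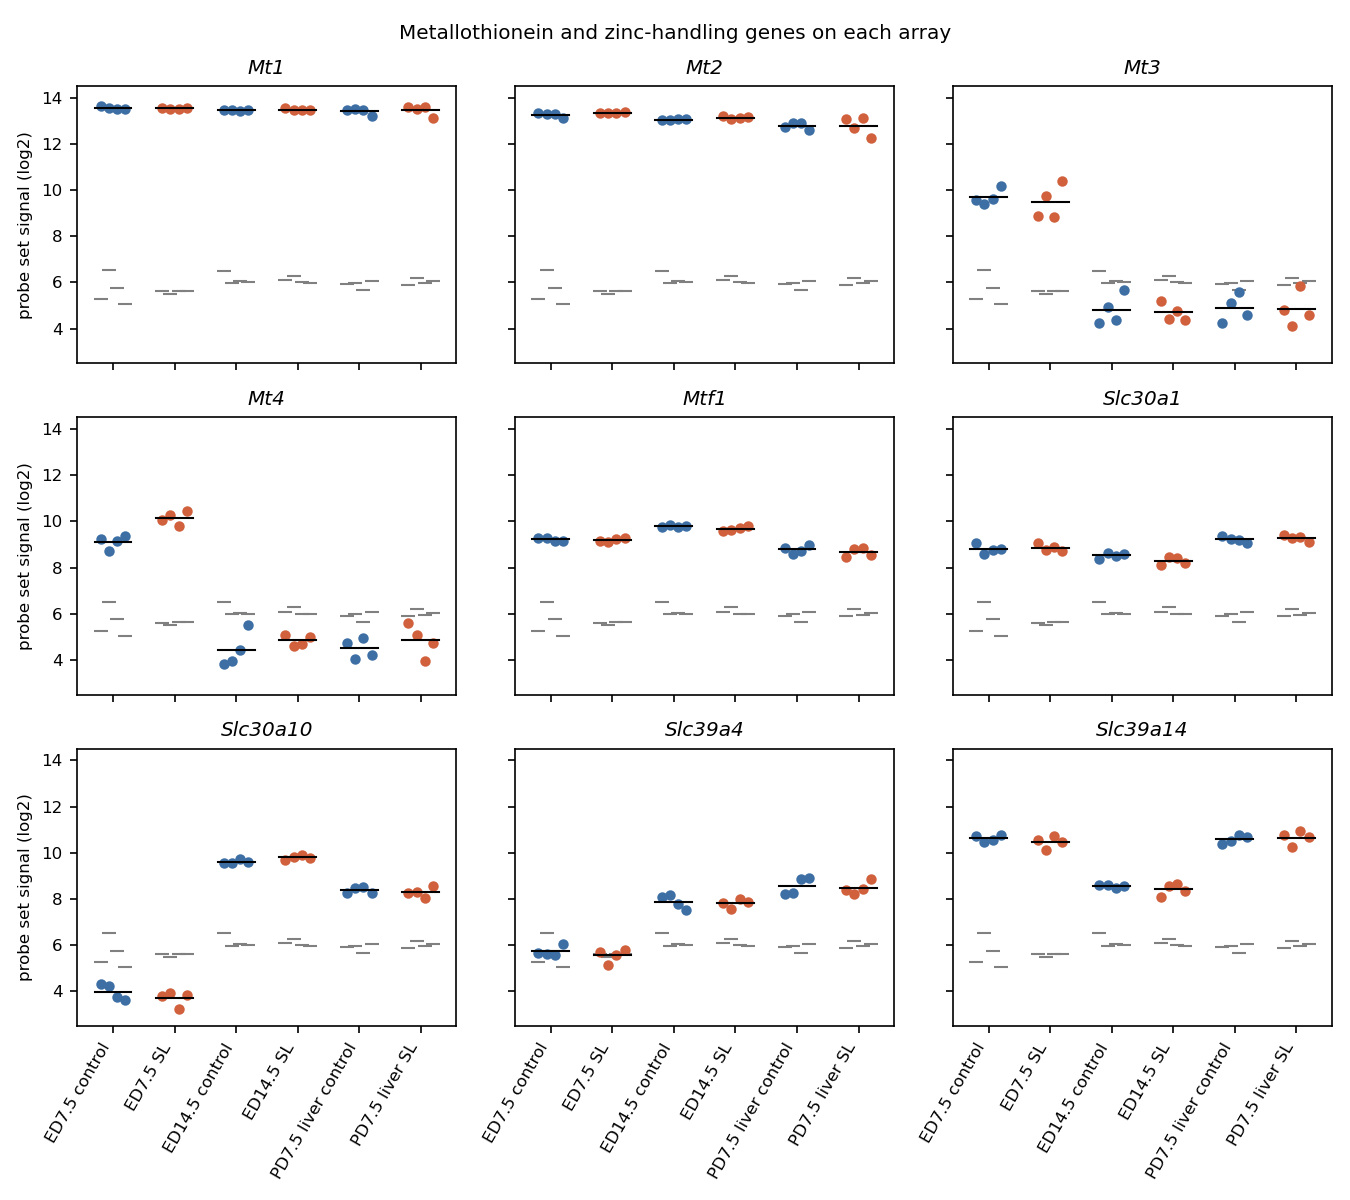
Each panel plots the log2 probe set signal of 1 gene on each of the 24 arrays, by age and grandfather group, 4 points per group, with the horizontal bar at the group mean and a grey mark at the background of each array. Mt1 and Mt2 stay near the top in every group, while Mt3 and Mt4 are above background at ED7.5 and below it on the 16 other arrays, the reverse of Slc30a10.

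Mt3 and Mt4 were measured above background at ED7.5 and on no array of the other ages. Mt3, which binds zinc and copper in brain, had control values of 9.55, 9.39, 9.60 and 10.18 at ED7.5 against a mean of 4.80 at ED14.5 and 4.88 in liver. Mt4 had 9.22, 8.70, 9.17 and 9.37 at ED7.5 against means of 4.43 and 4.50. Against the background, Mt3 was at least 11.7-fold lower at ED14.5 and at least 13.7-fold lower in liver, and Mt4 at least 7.91-fold and at least 9.26-fold lower. On the SL arrays too, both were above background on all 4 arrays at ED7.5 and on none at ED14.5 or in liver. In such bulk samples, fewer cells of a type and less RNA per cell cannot be told apart, and the ED7.5 arrays with signal of Mt3 and Mt4 are also those with decidua markers, whose mean level was 11.65 to 11.78 on the control arrays at ED7.5 and 5.10 to 5.23 at ED14.5. Of 11 neuron and glia markers, 7 were below background on all 8 arrays at ED7.5 and 6 on all 8 at ED14.5. For 12 stratified epithelium markers those counts were 9 and 12. The part of decidual, neural or epithelial cells in the values was not tested.

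The genes flanking the cluster differed less than Mt3 and Mt4 between these ages. In chromosomal order, the measured neighbours before Mt4 were Nudt21, Ogfod1 and Bbs2, whose ED14.5 minus ED7.5 control differences were 0.54, -0.65 and -1.20 (limma adjusted p = 3.56e-05, 0.000147 and 9.17e-05). After Mt1 came Nup93, Slc12a3 and Herpud1, with 0.33, 0.14 and 0.26 (adjusted p = 0.0448, 0.688 and 0.0702). Slc12a3 averaged 3.46 at ED7.5 and 3.60 at ED14.5, under the lowest background of any array (5.048), so nothing is read from its difference. Beside Mt3 and Mt4, the neighbouring Mt2 and Mt1 differed by -0.21 and -0.11.

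Mtf1, the factor that senses zinc, was above background on all arrays. Its control values were 9.28, 9.27, 9.17 and 9.17 at ED7.5, 9.76, 9.86, 9.76 and 9.79 at ED14.5, and 8.87, 8.61, 8.74 and 8.97 in liver. The 3 ages did not overlap, with ED14.5 the highest and liver the lowest, 1.99-fold apart. Slc30a1, the plasma membrane zinc exporter and an MTF1 target, had its higher values where Mtf1 had its lower ones, at 8.37, 8.63, 8.50 and 8.60 at ED14.5 and 9.39, 9.26, 9.20 and 9.05 in liver, 1.63-fold higher. At ED7.5 its values of 9.07, 8.61, 8.78 and 8.80 overlapped both.

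Slc30a10 exports manganese, and loss of it in people causes manganese overload. It was below background on all 8 ED7.5 arrays and at 9.55, 9.56, 9.72 and 9.62 on the ED14.5 control arrays, at least 15.6-fold higher. In liver it was 8.28, 8.48, 8.53 and 8.28, 2.32-fold lower than at ED14.5 with no overlap, and at least 6.70-fold above the ED7.5 background.

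The importers Slc39a14 and Slc39a4 had different orders. Slc39a14, which brings zinc, iron and manganese into hepatocytes, was 10.74, 10.48, 10.55 and 10.79 at ED7.5, 8.62, 8.59, 8.50 and 8.56 at ED14.5, and 10.38, 10.52, 10.77 and 10.69 in liver (all controls). The ED14.5 values lay 4.21-fold below ED7.5 and 4.07-fold below liver, and ED7.5 and liver overlapped. Slc39a4, the dietary zinc importer of intestine and yolk sac, was above background on 2 of 4 control arrays at ED7.5, where it read 5.68, 5.63, 5.59 and 6.06. It read 8.11, 8.18, 7.77 and 7.52 at ED14.5 and 8.21, 8.25, 8.87 and 8.90 in liver, where the lowest liver array lay just above the highest ED14.5 array.

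Counted over the 9 members, the control groups did not overlap for 8 genes between ED14.5 and ED7.5, for 6 between liver and ED14.5, and for 6 between liver and ED7.5. The same held for 49.4%, 43.7% and 47.3% of all genes tested, and since the members were chosen with these levels known nothing is read from their share.

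The other members of both transporter families show how common such steps were. Material changed with age, so age and tissue cannot be told apart in any of them. Between ED7.5 and ED14.5 controls, 6 of the 8 other Slc30 genes passed the test at an adjusted p under 0.05, of which 5 fell and 1 rose; 51.2% of all genes passed it. Slc30a2, which loads zinc into vesicles, was at least 10.9-fold lower at ED14.5, and Slc30a4 and Slc30a7, which load zinc into endosomes and Golgi, had differences of -2.27 and -1.21 (limma adjusted p = 9.83e-14 and 4.2e-08). Slc30a9 rose by 0.55 (adjusted p = 0.000919). Of the 12 other Slc39 genes, 9 passed, with 7 lower and 2 higher. Slc39a2 was at least 7.27-fold lower, and Slc39a6 and Slc39a10, a related pair of plasma membrane importers, had differences of -2.66 and -2.23 (adjusted p = 2.76e-13 and 1.31e-12). Slc39a5, an importer of liver and pancreas, rose by 3.96 (adjusted p = 3.23e-14) and Slc39a8, the closest relative of Slc39a14, by 2.64 (adjusted p = 8.13e-13).

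Slc39a8 and Slc39a14 both carry zinc, iron and manganese, and Slc39a8 was highest at the age where Slc39a14 was lowest. Slc39a8 in the controls averaged 8.58 at ED7.5, 11.21 at ED14.5 and 10.26 in liver. Its liver minus ED14.5 difference was -0.95 (adjusted p = 1.64e-05), where that of Slc39a14 was 2.02. Between liver and ED14.5, 47.8% of all genes passed the test, against 4 of 8 Slc30 genes, 2 in each direction, and 6 of 12 Slc39 genes, 3 in each direction. Slc39a2, among the 3 higher Slc39 genes, was below background on every control array of both ages. Of the Slc30 genes, Slc30a4 rose by 1.22 and Slc30a7 by 0.68 (adjusted p = 8.37e-09 and 0.000147), and Slc39a10 fell by 0.68 (adjusted p = 0.000182). Between liver and ED7.5, 53.8% of all genes passed, with 6 of 8 Slc30 genes, all lower in liver, and 10 of 12 Slc39 genes, 2 higher and 8 lower.

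**Figure D2:**
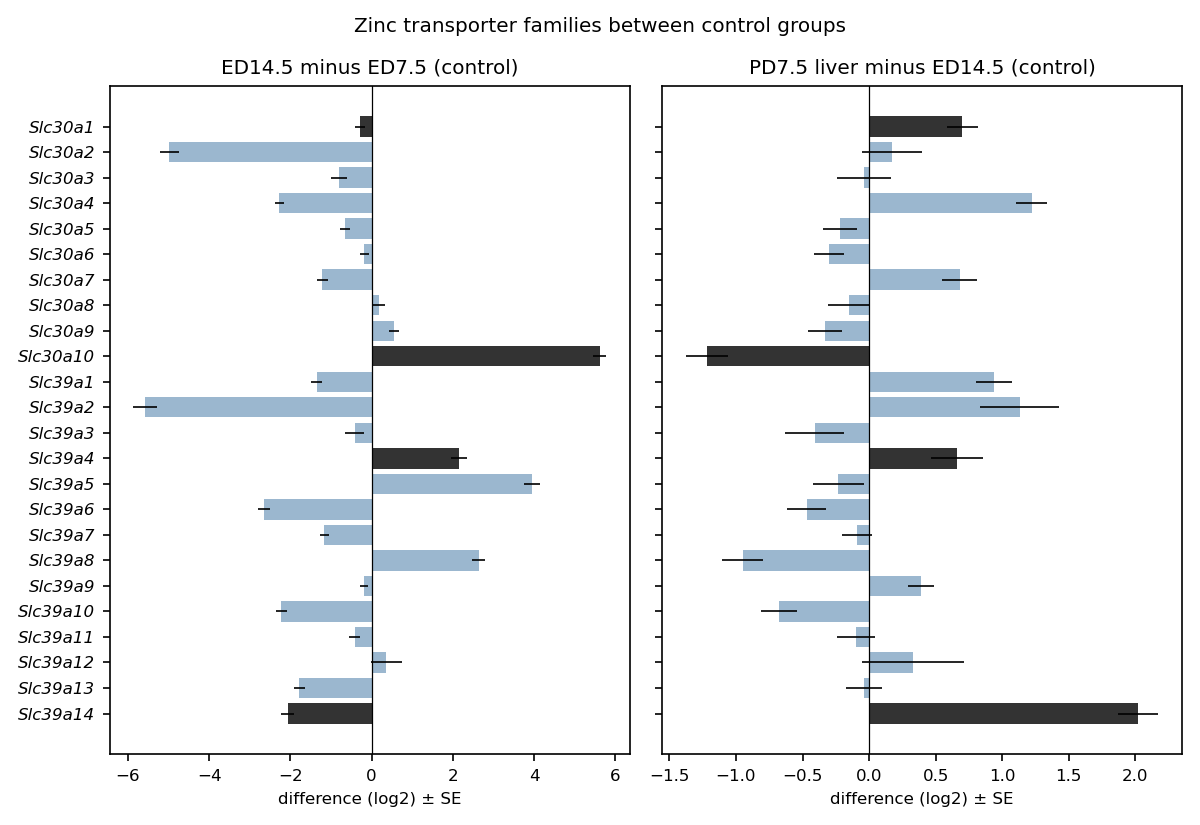
Bars give the log2 difference between control groups, ED14.5 minus ED7.5 and liver minus ED14.5, for each zinc transporter gene, with the SE from the 24-array fit, and dark bars are the members of the list. Slc30a10 (5.62) and Slc39a5 (3.96) extend far to the right at ED14.5 minus ED7.5 and Slc39a2 (-5.57) and Slc30a2 (-4.98) far to the left; genes below background in 1 of the groups have a bar that depends on their background level.

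The central comparison of the study sets grandoffspring of obese grandfathers beside grandoffspring of control grandfathers at each age. None of the 9 members passed an adjusted p of 0.05 over all genes in limma, at any age. At ED7.5 0.00513% of all genes passed, at ED14.5 0.0513% (0.0308% higher and 0.0205% lower in SL) and in liver 0%. The members' adjusted p-values were 0.634 to 0.998 at ED7.5, 0.458 to 0.931 at ED14.5 and 0.823 to 0.996 in liver. At an unadjusted p under 0.05, 1 of 9 passed at ED7.5, 0 at ED14.5 and 0 in liver, against 5.49%, 11.4% and 7.91% of all genes. The median difference of the members was -0.03, -0.07 and -0.01, against 0 for all genes, and 3, 4 and 4 of the 9 were above zero. Since the members were chosen with earlier results known, their p-values are no independent evidence.

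Mt4 stood furthest apart at ED7.5. It read 9.22, 8.70, 9.17 and 9.37 on the control arrays and 10.06, 10.29, 9.79 and 10.46 on the SL arrays. All 4 SL arrays lay above all 4 control arrays. Groups that did not overlap, in either direction, were found for 1 of the 9 members against 3.05% of all genes. The difference was 1.04 (SE 0.182, 95% interval 0.63 to 1.44), a 2.05-fold higher signal with an unadjusted limma p of 0.000233, rank 6 of 19505 genes, and an adjusted p of 0.634 that missed the threshold. Leaving out 1 array at a time gave 0.90 to 1.16 and adjusted p = 0.429 to 0.863. Over all 15 alternative settings the adjusted p was 0.107 to 0.863.

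The decidua and epithelium markers measured beside Mt4 at ED7.5 were as follows. Stratified epithelium, where Mt4 is best known, had 12 markers on the arrays with a mean level of 4.33 to 4.55 in controls and 4.53 to 4.65 in SL, and 9 of 12 were below background on all 8 arrays. Krtdap, a keratinocyte gene, was the marker above background on all 8, at 11.70 in controls and 11.87 in SL (limma adjusted p = 0.984). Over the 12 epithelium markers the SL minus control differences ran from -0.37 to 0.51, with a median of 0.05 and 7 above zero. None passed the test (smallest adjusted p = 0.813). At an unadjusted limma p under 0.05 there were 1 of the 12 epithelium and 2 of the 10 decidua markers. The 10 decidua markers averaged 11.65 to 11.78 in controls and 11.74 to 11.83 in SL, ranges that overlap. Their SL minus control differences ran from -0.31 for Prl3c1, a decidual prolactin, to 0.71 for the chaperone Cryab, with a median of 0.05 and 6 of 10 above zero, and none passed the test (smallest adjusted p = 0.76). The part of these cells in the Mt4 values was not tested.

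Mt1, Mt2 and Mt3 did not show the Mt4 pattern at ED7.5. Mt1 read 13.56, 13.49, 13.52 and 13.54 on the SL arrays, inside the control range, with a difference of -0.02 (95% interval -0.22 to 0.18). Mt2 read 13.32, 13.34, 13.35 and 13.39, with a difference of 0.09 (-0.12 to 0.30). Mt3 read 8.87, 9.73, 8.84 and 10.39, a wider spread than the controls on both sides, with a difference of -0.22 (-0.97 to 0.53). The intervals therefore leave room for a change of Mt3 in either direction that is larger than for Mt1 or Mt2. At ED14.5 and in liver Mt4 was below background in both groups and no fold is given.

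At ED14.5 the exporters showed the largest differences of the members above background, none past the threshold. Slc30a10 read 9.55, 9.56, 9.72 and 9.62 in controls and 9.71, 9.82, 9.89 and 9.79 in SL, which overlap narrowly. The difference was 0.19 (SE 0.0896, 95% interval -0.01 to 0.39, adjusted p = 0.458). Slc30a1 read 8.37, 8.63, 8.50 and 8.60 in controls and 8.10, 8.45, 8.42 and 8.21 in SL, also overlapping, with a difference of -0.23 (SE 0.114, -0.49 to 0.03, adjusted p = 0.482). Mtf1 was 9.58, 9.63, 9.72 and 9.82 in SL, a difference of -0.11 (adjusted p = 0.696), and Mt1 and Mt2 differed by 0.03 and 0.08. No member had groups that did not overlap at ED14.5, against 7.98% of all genes.

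In liver the SL values spread around those of the controls. Mt1 read 13.59, 13.51, 13.58 and 13.10 in SL and Mt2 read 13.05, 12.67, 13.10 and 12.24, so that both SL groups held the highest and the lowest array of the age. The differences were 0.04 (95% interval -0.29 to 0.37) and -0.01 (-0.45 to 0.44), or 0.15 and 0.17 without SL replicate 4 (limma adjusted p = 0.801 and 0.821). The transporters Slc30a1, Slc30a10, Slc39a4 and Slc39a14 differed by 0.05, -0.10, -0.08 and 0.07, and Mtf1 by -0.13. No member had groups that did not overlap, against 4.43% of all genes.

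**Figure D3:**
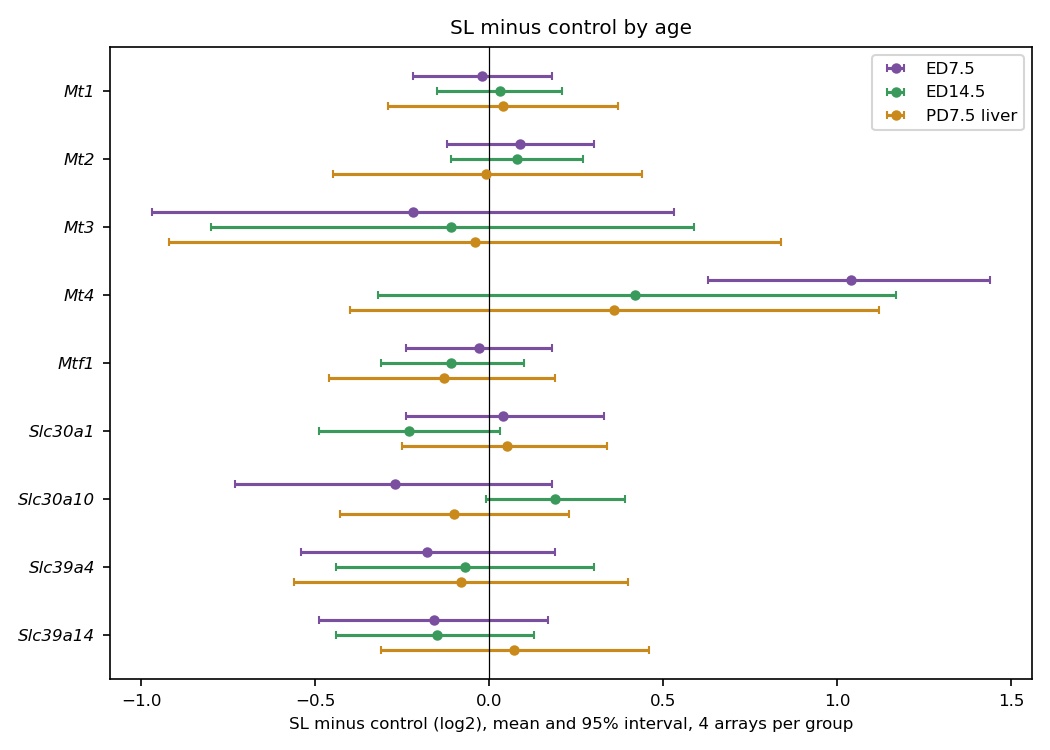
Points give the SL minus control difference of each of the 9 genes on the log2 scale at each age, with the 95% interval of the limma fit, 4 arrays per group. The Mt4 interval at ED7.5 (0.63 to 1.44) lies clear of zero, and its p missed the threshold after adjustment over all genes (0.634).

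Whether the SL difference itself changed between ages was tested in the fit of all 24 arrays. No member passed, against 0.0769% of all genes between ED14.5 and ED7.5, 0.0256% between liver and ED14.5 and 0.00513% between liver and ED7.5. The smallest adjusted p of a member was 0.72 for Slc30a10 in the first, a difference of 0.46 (SE 0.222), though Slc30a10 was below background at ED7.5. It was 0.579 for Slc30a1 in the second. In the third it was 0.685 for Mt4, with a difference of -0.68 (SE 0.458) that rests on liver arrays below background.

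Other zinc and metal genes were read from lists of 8 Slc30 genes, 12 Slc39 genes, 13 copper genes (Sco2 had no named probe set and was not analysed here) and 11 manganese and iron genes. None passed the adjusted threshold between SL and control at any age. At an unadjusted p under 0.05 the Slc30 list had 0, 0 and 1 genes at ED7.5, ED14.5 and in liver, the Slc39 list 0, 0 and 2, the copper list 0, 2 and 0, and the manganese and iron list 1, 3 and 0, where 5.49%, 11.4% and 7.91% of all genes had one. In liver, Slc39a11 and Slc39a5 were at -0.38 and -0.43 (limma adjusted p = 0.628 for both), and Slc39a8 and Slc30a4 at 0.24 and 0.27 (adjusted p = 0.67 and 0.678). Slc30a6 was at 0.23 in liver (adjusted p = 0.707) and Slc30a9 at -0.13 at ED7.5 (adjusted p = 0.964). At ED14.5, the copper and iron reductase Steap2 was at -0.45 (adjusted p = 0.251) and the copper transporter relative Slc31a2 at -0.34 (adjusted p = 0.356). Hamp, the iron hormone hepcidin, was above background on 3 of 4 SL arrays and on none of the control arrays at ED14.5, at least 1.28-fold higher (adjusted p = 0.133). Slc11a2, the divalent metal importer, was at -0.44 and Hjv, an upstream regulator of hepcidin, at 0.50 (adjusted p = 0.316 and 0.408). The ferrireductase Steap3 was at -0.45 at ED7.5 (adjusted p = 0.906).

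Glucocorticoids and inflammation both induce metallothioneins, so genes of both responses were set beside Mt1 and Mt2. At ED14.5, 10 of 17 glucocorticoid response genes (58.8%) had an unadjusted p under 0.05, 9 higher and 1 lower in SL, where 11.4% of all genes did. None passed after adjustment over all genes, the smallest adjusted p being 0.0656 for Ddit4, an mTOR inhibitor. The list was written with earlier results of these data known, so its share is no independent evidence. Pck1, among the 9 higher, was below background on every ED14.5 array. The list's median difference was 0.43 and 15 of 17 were above zero, among them Pck1 and Tat, both below background on every ED14.5 array. Mt1 and Mt2 on the same arrays differed by 0.03 and 0.08. There Mt1 lay 0.08 to 0.22 below the brightest gene and Mt2 0.42 to 0.58. Whether signal this near the top of the scale stays proportional to RNA was not tested, so nothing is read from these small differences. Ddit4 was 6.51 ± 0.075 in controls and 7.38 ± 0.259 in SL (SD, n = 4), and the clock gene Per1 was 7.54 ± 0.229 and 8.41 ± 0.23 (adjusted p = 0.0845). Igfbp1, a liver-secreted binding protein of insulin-like growth factors, differed by 0.88 (adjusted p = 0.147). At ED7.5 and in liver, 0 and 1 of the 17 had an unadjusted p under 0.05, against 5.49% and 7.91% of all genes.

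**Figure D4:**
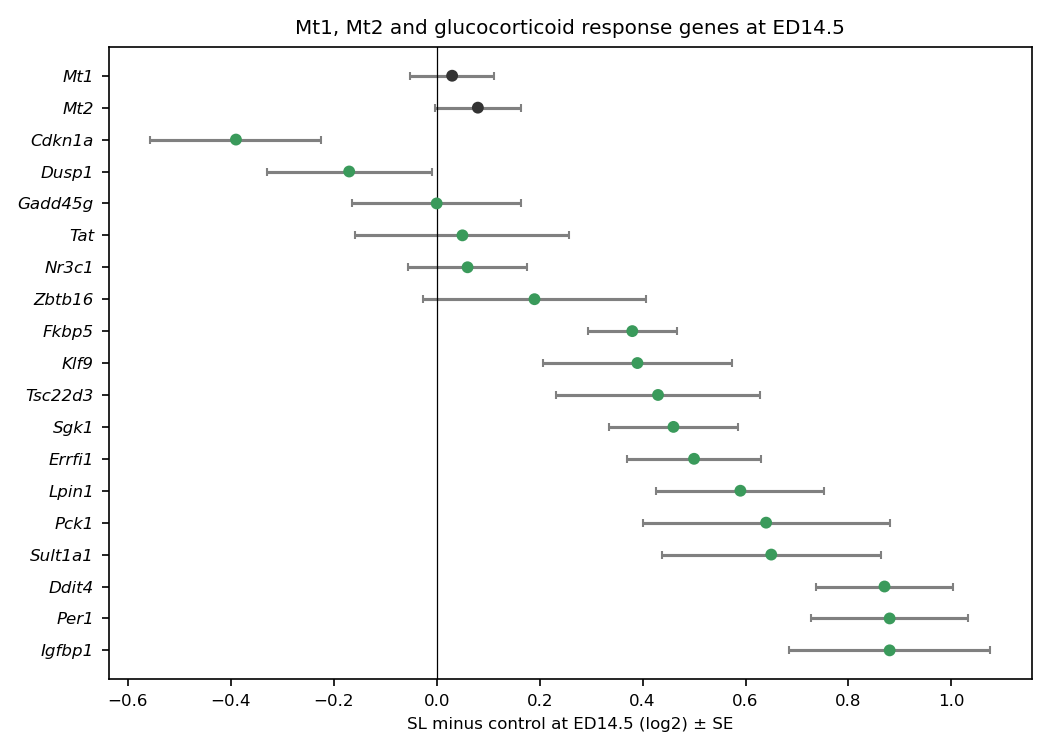
Points give the SL minus control difference at ED14.5 on the log2 scale, with SE, for Mt1, Mt2 and 17 glucocorticoid response genes. Per1 and Igfbp1 (0.88 each) and Ddit4 (0.87) lie at the high end, and Mt1 (0.03) and Mt2 (0.08) lie near zero. Whether signals as bright as those of Mt1 and Mt2 stay proportional to RNA was not tested. Pck1 and Tat were below background on every ED14.5 array.

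Of 20 acute phase and interleukin 6 response genes, none passed the adjusted threshold, and 2, 4 and 1 had an unadjusted p under 0.05 at ED7.5, ED14.5 and in liver, against 5.49%, 11.4% and 7.91% of all genes. Il1rn, the interleukin 1 receptor antagonist, was 7.97 ± 0.137 in controls and 7.07 ± 0.193 in SL at ED14.5 (SD, n = 4, limma adjusted p = 0.0596). The ferric reductase Steap4 at ED7.5 differed by 0.84 (adjusted p = 0.76) and Serpina3n at ED14.5 by 0.46 (adjusted p = 0.289). Slc39a14, which interleukin 6 induces in mouse liver, differed by -0.16, -0.15 and 0.07 at the 3 ages.

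The spread within groups differed widely between the metallothioneins. The pooled SD within groups was 0.113 for Mt1 and 0.182 for Mt2, below the median of 0.257 over all genes, and 0.596 for Mt3 and 0.495 for Mt4, above it. For Mt3 and Mt4 that includes the arrays below background. Slc39a4 was at 0.281 and the other members between 0.118 and 0.223.

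After subtracting group means, Mt1 and Mt2 deviated together, with Pearson's r of 0.88 over the 24 arrays. This is a description, since the arrays are assumed to share their normalization. In liver SL replicate 4 the deviations were -0.34 for Mt1 and -0.53 for Mt2. Without that array r was 0.65 over 23 arrays. By age r was 0.43 at ED7.5, 0.57 at ED14.5 and 0.92 in liver, or 0.72 in liver without that array.

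The same liver array was low for erythroid genes. The mean of 6 definitive erythroid markers was 8.66, 9.24, 8.70 and 8.78 on the control liver arrays and 8.96, 8.50, 8.62 and 7.62 on the SL ones, the last being replicate 4. Deviations of Mt1 and Mt2 correlated with those of the markers at 0.83 and 0.84 over the 8 liver arrays and at 0.36 and 0.48 without that array. At ED14.5 the same correlations were -0.48 and -0.07 over 8 arrays. At ED7.5 they were 0 and -0.32, where 0 of the 6 markers were above background on all 8 arrays. The part of blood-forming cells in the metallothionein values was not tested.

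**Figure D5:**
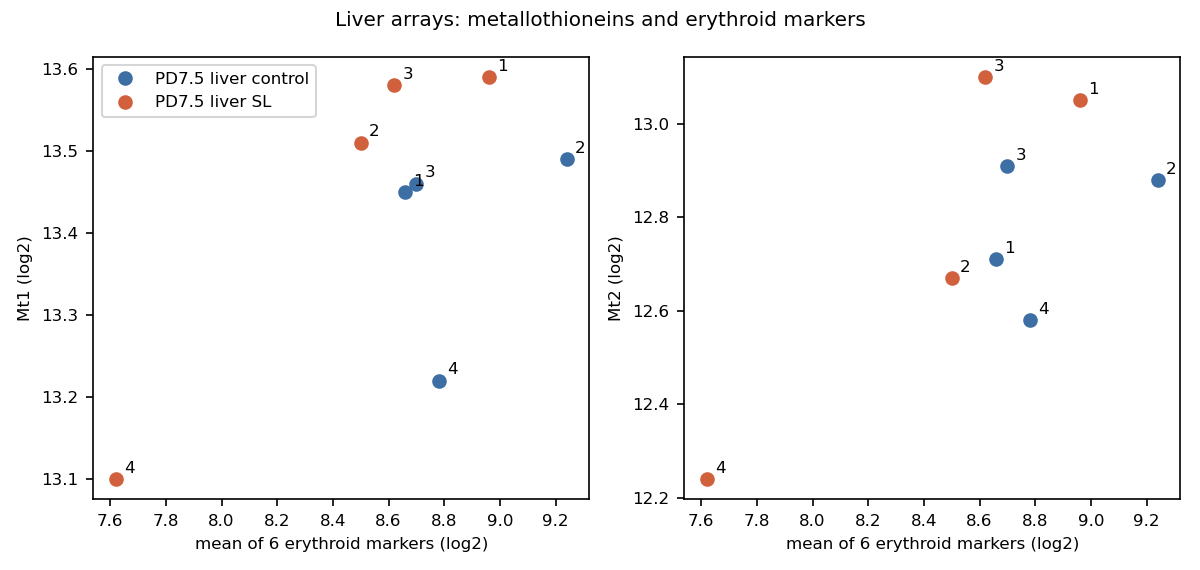
Each point is 1 of the 8 liver arrays, with the mean log2 signal of 6 erythroid markers on the x axis and the log2 signal of Mt1 or Mt2 on the y axis, coloured by group and numbered by replicate. The SL array at 7.62 on the x axis is also the lowest for Mt1 (13.10) and Mt2 (12.24).

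The genes most like Mt1 in these deviations, among 7771 genes above background on all arrays, were Mt2 (0.88), Lmo2 (0.82), H2ax (0.80), Gsn (0.80) and Nek2 (0.79). Without liver SL replicate 4 the same genes had r of 0.65, 0.49, 0.46, -0.04 and 0.35 with Mt1. Those most like Mt2 were Pip5k1b (0.89), Mt1 (0.88), Cdca4 (0.87), Narf (0.83) and Siah1b (0.83), and without that array 0.69, 0.65, 0.70, 0.79 and 0.73. Of the 5 leading genes, 0 were shared for Mt1 and 1 for Mt2 between the rankings with and without that array.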

How the data were processed

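The data are 1-colour expression arrays of 24 mouse samples in 6 groups of 4. The deposited values are log2 probe set summaries that the authors made, per the submitters' processing notes, with RMA in the oligo package (version not given in the sources used here). That the scale is log2 follows from RMA and from the value range. That the 24 arrays were normalized together is an assumption, on which the levels between ages and the 24-array fits rest. No further normalization was applied. Of 29129 probe sets, 19572 named 1 gene; for 55 genes with several the brightest was used, leaving 19505. SL and control were compared within each age on 8 arrays, and ages and the difference of SL effects on all 24, with lmFit and eBayes in limma 3.58.1 (R 4.3.3), adjusted by Benjamini-Hochberg over all genes at 0.05. A probe set was above background if over the 75th percentile of 5222 intron control probes on that array, and folds against a group wholly below it are lower bounds. The members, the gene and marker lists and the tests were chosen with earlier results of these data known. The text names all 9 members, the 3 genes of each list with the smallest p in an SL comparison whose group mean was above background, other list genes past the threshold between ages as examples, and the 5 genes most alike to Mt1 and Mt2. List genes near or below background that enter a count, and some cell type markers, are named too. Alternatives were a mean trend with robust variances, array weights, a joint fit of 24 arrays, a replicate block, the mean of a gene's probe sets, quantile normalization, leaving out the dimmest 33% of genes, and each array left out. The fits were tested on simulated data. The number of arrays limits the precision.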

Additional observations from a re-analysis of the deposited data

Results flagged for a closer look

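Within groups of 4, 54 gene and group combinations were examined for 1 array far from the others, and 3 stood apart, where chance gives about 1 in 20. Mt1 in ED14.5 SL replicate 1 was 13.54 against 13.45 on the next array, a gap that made up most of a narrow range. Mt1 in PD7.5 liver control replicate 4 was 13.22 against 13.45, on an array where Mt2 was also the lowest of the controls at 12.58. Slc30a10 in ED7.5 SL replicate 3 was 3.25 against 3.82, both below background. Liver SL replicate 4, which is left out of some values above, was not among the 3.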

How the results depend on the processing

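No member passed the threshold for SL against control, or for the difference of SL effects between ages, under any setting run. Of 403 alternative values of the 27 member differences, 377 kept their direction and 26 turned it, in 11 differences whose size was at most 0.11. Under quantile normalization Mt1 at ED7.5 turned to 0.01, and with array weights Mt3 in liver turned to 0.05. Leaving out 1 array gave ranges that crossed zero at ED7.5 for Mt1 (-0.04 to 0.01), Mtf1 (-0.05 to 0.00) and Slc30a1 (-0.03 to 0.13), at ED14.5 for Mt3 (-0.29 to 0.18) and Slc39a4 (-0.20 to 0.02), and in liver for Mt1 (-0.02 to 0.15), Mt2 (-0.12 to 0.17), Mt3 (-0.38 to 0.20), Slc30a1 (-0.01 to 0.11), Slc39a4 (-0.21 to 0.03) and Slc39a14 (-0.02 to 0.21). The count over all genes moved more, and the cause was not tested. At ED7.5 it was 1, with 3 under a mean trend with robust variances, 12 in the fit of all 24 arrays and 0 to 2 with 1 array left out. At ED14.5 it was 10, with 283 under the trend, 79 in the 24-array fit, 98 without the dimmest genes and 1 to 5 with 1 array left out. In liver it was 0, with 5 in the 24-array fit. For the difference of SL effects between ED14.5 and ED7.5 it was 15, with 35 under the trend, 28 without the dimmest genes and 8 to 19 with 1 array left out; between liver and ED14.5 it was 5, with 28 under the trend, 10 after quantile normalization, 18 without the dimmest genes and 1 to 16; between liver and ED7.5 it was 1, with 0 to 10. Without liver SL replicate 4 the last 2 counts were 13 and 3. Quantile normalization gave control age differences of -0.19, -0.19 and -0.38 for Mt1 (ED14.5 minus ED7.5, liver minus ED14.5, liver minus ED7.5) and of -0.41 and -0.64 for Mt2 (liver minus ED14.5, liver minus ED7.5).

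Replicate numbers are shared between the groups. Same-numbered SL and control arrays deviated with r of -0.17 to 0.07 at ED7.5, 0 to 0.03 at ED14.5 and -0.02 to 0.12 in liver. The same-numbered array was the best match for 0 of 4 replicate numbers at ED7.5, 1 at ED14.5 and 3 in liver. With r this low the numbers were not taken as a pairing, though in liver a link between same-numbered arrays is not excluded. With the replicate block the count over all genes was 0 at ED14.5, and 5, 3 and 0 for the 3 differences of SL effects.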
